A study of Bos taurus with 24 samples.

Results

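Matrix metalloproteinases (MMPs) and their tissue inhibitors (TIMPs) were followed in cultured bovine dermal fibroblasts over breed and hours of lipopolysaccharide (LPS). The set held 9 genes, namely MMP1, MMP2, MMP3, MMP9, MMP13, MMP14, TIMP1, TIMP2 and TIMP3. Their rows were found by gene symbol among 59846 rows of the expression tables, of which 27550 carried a symbol, and each of the 9 symbols had 1 row. The data were RNA-Seq read counts of 24 samples, from 4 Angus (beef) and 4 Holstein (dairy) heifers, each sampled at 0, 2 and 8 h. LPS, a component of the outer membrane of Gram-negative bacteria, was given at 100 ng/ml, and 0 h was the state before it. Each culture was grown from frozen third-passage fibroblasts of a skin biopsy of the shoulder of 1 animal, revived and reseeded before LPS. Lysate of replicate wells was pooled, so that the 4 samples of a group were 4 animals. No untreated culture at 2 or 8 h was analysed here, and hours in culture cannot be told apart from hours of LPS.

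MMPs are zinc-dependent endopeptidases that cleave collagens and other proteins of the extracellular matrix, and most are secreted as inactive proenzymes. TIMPs bind the active site of the enzymes and block them, and TIMP3 in addition stays bound to the matrix and inhibits the shedding enzyme ADAM17. Dermal fibroblasts are known as a main source of collagen, of MMPs and of TIMPs in skin, and inflammatory signals are known to induce the collagenase MMP1 and the stromelysin MMP3 in them.

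Levels are given as counts per 1000000 (CPM), scaled by the trimmed mean of M-values (TMM). Total counts were 51014538 to 104406293 per sample, so that 3 counts stood for 0.029 to 0.059 CPM. CPM is not scaled to gene length, and changes and differences were tested within a gene only. Marker sums and the levels of the clustered MMP genes are set side by side as a description. The labelled cell type was checked by markers. The summed level of 10 fibroblast markers was 32805 to 75869 CPM, against 2.25 to 6.1 CPM for 8 leukocyte markers, 2.03 to 5.22 CPM for 6 endothelial markers, 1.5 to 3.5 CPM for 5 melanocyte markers and 394 to 805 CPM for 6 smooth muscle and pericyte markers. The 8 keratinocyte markers had summed levels of 0.521 to 0.98 CPM in the 12 Angus samples, and of 0.809 to 14.9 CPM in the 12 from Holstein animals. KRT1 was at 0 in every sample. In 4 samples (Angus 4, Holstein 2 and Holstein 4 at 0 h, Angus 3 at 2 h), a count of COL1A1 covered 66.2 to 67.1 bases. In the remaining 20 samples it covered 111.8 to 119 bases. What differed in their processing is not stated, and they are called below the 4 samples counted another way. The 5 members with enough counts to examine (MMP2, MMP14, TIMP1, TIMP2 and TIMP3) did not share this difference in covered bases. TIMP3, for example, covered 82.1 to 83.8 bases with a count in these 4 samples and 81.9 to 84.0 over all 24. Fits without these 4 samples also have fewer samples, and the part of each in a lost call was not tested.

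On UMD v3.1, MMP13 (chr15:5912037-5922736), MMP3 (chr15:6028011-6034595) and MMP1 (chr15:6132916-6141316) lay on the + strand of chromosome 15 in a cluster of 8 MMP genes that spanned 488 kb. MMP2 lay at chr18:23828619-23855027 (+), MMP9 at chr13:75466513-75473824 (+) and MMP14 at chr10:21806054-21814533 (−). TIMP1 lay at chrX:91232235-91236073 (+), TIMP2 at chr19:54079297-54131054 (+) and TIMP3 at chr5:71751415-71809053 (+). Each row was a whole gene span, so exons, introns and untranslated regions could not be separated. The library kit does not mark strand, and 3 of the 9 genes overlapped another row. TIMP1 lay inside SYN1, a gene on the opposite strand, whose counts were 0.976 to 0.98 of those of TIMP1. TIMP3 lay inside SYN3, also on the opposite strand, with 0.324 to 0.401 of its counts. TIMP2 overlapped LOC100125412 (3 to 46 counts) and an interval without a symbol, which held 1.77 to 2.06 times its counts. Counts of these pairs cannot be told apart. As these were bulk samples, fewer cells of a type and less RNA per cell cannot be told apart.

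**Figure D1:**
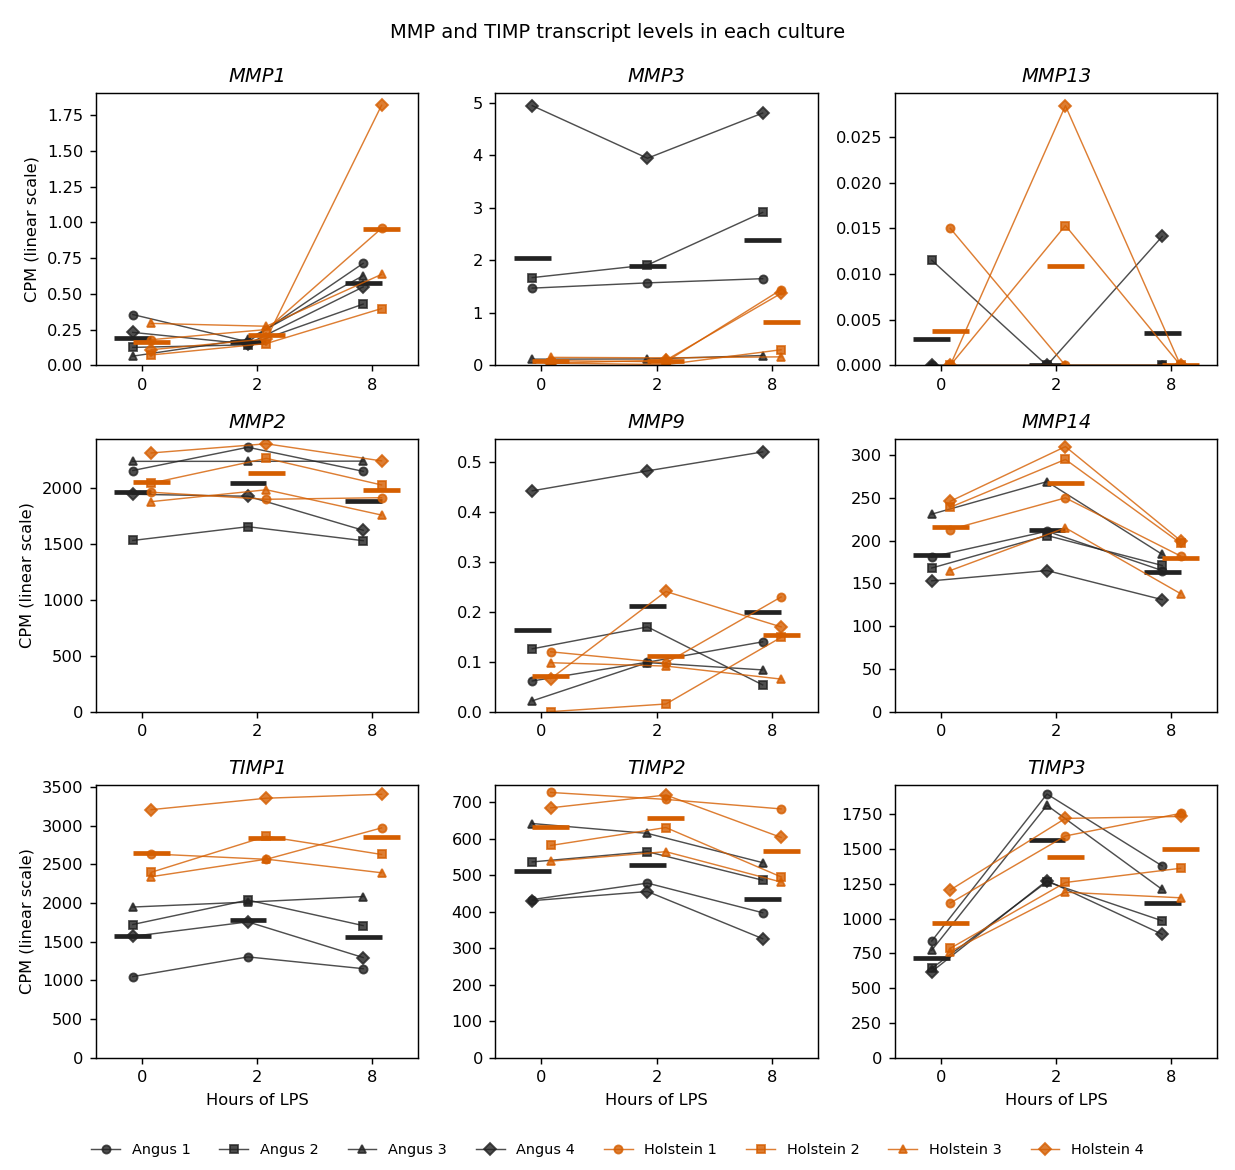
Level of each of the 9 genes (y axis, CPM on a linear scale that starts at 0 and differs between panels) against hours of LPS (x axis) in the 4 Angus (black) and 4 Holstein (orange) cultures. Thin lines join the samples of 1 animal and thick bars are group means; TIMP3 is higher at 2 and 8 h than at 0 h in all 8 animals, TIMP1 is higher in every Holstein than in every Angus sample of an hour, and MMP3 is high in 3 of the 4 Angus animals.

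TIMP3, the inhibitor that binds to the matrix, rose after LPS in both breeds and at both hours. At 0 h, TIMP3 was at 839, 642, 773 and 619 CPM in Angus animals 1 to 4 and at 1111, 786, 763 and 1205 CPM in Holstein animals 1 to 4. After 2 h, the same Angus animals had 1894, 1264, 1813 and 1273 CPM, and the Holstein animals 1593, 1259, 1189 and 1719 CPM. After 8 h, levels were 1378, 984, 1209 and 887 CPM in Angus and 1755, 1361, 1149 and 1733 CPM in Holstein. Every animal was above its own 0 h level at both hours. The mean in Angus went from 718 ± 105 CPM (SD, n = 4) to 1561 ± 339 CPM at 2 h and was 1114 ± 222 CPM at 8 h. In Holstein it went from 966 ± 225 CPM to 1440 ± 256 CPM at 2 h and 1499 ± 295 CPM at 8 h. The highest group mean was therefore at 2 h in Angus and at 8 h in Holstein, but the Holstein groups at 2 and 8 h lay within their spread of each other.

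With the breeds combined, TIMP3 rose by a log2 fold change of 0.83 (SE 0.15, FDR 2.09e-06, edgeR likelihood-ratio test, adjusted over all rows) at 2 h and 0.63 (SE 0.17, FDR 0.00374) at 8 h. Both comparisons share the 0 h samples. In these fits, which did not pair the samples of an animal, TIMP3 was the 1 member with an FDR under 0.05. That was of 5 members tested at 2 h and 6 at 8 h, where 22.0% and 12.8% of all rows tested had such an FDR. With the pairing, MMP14, TIMP1, TIMP2 and MMP3 also passed at 1 or both of these hours, as given below. In those paired fits, 47.5% of all rows tested passed at 2 h and 40.7% at 8 h. The study's limits also ask for a fold change of at least 2 and a mean above 1 CPM, and no member met them with the breeds combined, against 2.82% of rows at 2 h and 1.42% at 8 h. These pooled TIMP3 results held without each animal in turn (FDR no higher than 9.99e-05 at 2 h and 0.0233 at 8 h).

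Within Angus, TIMP3 rose by 1.12 on the log2 scale at 2 h (SE 0.19, FDR 2.40e-07), with folds of 1.97 to 2.34 in the 4 animals. It was the 1 member of 6 tested that met all limits, which 2.98% of rows did (13.8% by FDR alone). At 8 h its log2 fold change in Angus was 0.63 (SE 0.17, FDR 0.014), where no member met all limits (0.863% of rows, 3.90% by FDR alone). Within Holstein, it rose by 0.57 (SE 0.19, FDR 0.0214) at 2 h and 0.63 (SE 0.20, FDR 0.0133) at 8 h, with folds of 1.43 to 1.60 and 1.44 to 1.73. No member met all limits in Holstein, against 3.14% of rows at 2 h and 2.51% at 8 h, and 17.2% and 14.7% of rows had an FDR under 0.05. CD68, a leukocyte marker at 1.35 to 4.34 CPM in Holstein, rose as well in Holstein at 2 h (log2 1.07, FDR 3.56e-05). The 6 smooth muscle and pericyte markers, for the most part CNN1 and CSPG4, summed to 401 to 547 CPM at 0 h, 606 to 805 CPM at 2 h and 400 to 519 CPM at 8 h in the Angus cultures. In the Holstein cultures these sums were 440 to 538, 641 to 702 and 394 to 502 CPM, so that 0 and 2 h did not overlap in either breed. The part of these markers in the TIMP3 results was not tested. The fold at 2 h in Angus was under 2 without the 4 samples counted another way (log2 0.97, FDR 9.03e-05) and with library totals as the only scaling (0.98, FDR 6.90e-06). The calls on 4 animals were near the threshold in 3 comparisons: without 1 animal the FDR reached 0.108 in Holstein at 2 h (without animal 1; 0.102 and 0.0572 without animals 2 and 3), 0.102 in Holstein at 8 h (without animal 2; 0.0814 without animal 1) and 0.142 in Angus at 8 h (without animal 2; 0.0714 and 0.0823 without animals 1 and 3), while the log2 fold changes stayed between 0.54 and 0.67. In these 3 comparisons the FDR was 0.0646, 0.0583 and 0.0949 by the quasi-likelihood test and 0.0545, 0.0512 and 0.0678 without the 4 samples counted another way.

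The TIMP3 folds at 2 h did not overlap between the breeds, at 1.97 to 2.34 in the 4 Angus and 1.43 to 1.60 in the 4 Holstein animals. The interaction (log2 change in Holstein minus that in Angus) was −0.54 (SE 0.28) at 2 h, and its FDR of 1 did not pass. With the animal as replicate block, which removes the differences between animals, it was −0.51 (SE 0.11, FDR 1.87e-04), and 4.28% of rows passed an FDR of 0.05 there. At 8 h the folds were alike in range, 1.43 to 1.64 in Angus and 1.44 to 1.73 in Holstein, with an interaction of −0.00 (SE 0.27, FDR 1). No member met all limits for the interaction, against 0.278% of rows at 2 h and 0.0982% at 8 h. Levels of TIMP3 overlapped between the breeds at each hour (Holstein against Angus log2 0.43, SE 0.19, FDR 0.106 at 0 h; −0.12, SE 0.20, FDR 0.716 at 2 h; 0.43, SE 0.19, FDR 0.0991 at 8 h). Without Holstein animal 3, the difference was 0.53 with an FDR of 0.0459 at 0 h and 0.0414 at 8 h. SYN3, whose counts cannot be told apart from those of TIMP3, had LPS changes of 0.91 (SE 0.16, FDR 2.92e-07) at 2 h and 0.65 (SE 0.19, FDR 0.00689) at 8 h in the breeds combined. Between the breeds SYN3 was higher in Holstein by 0.52 (FDR 0.0283) at 0 h and 0.60 (FDR 0.0125) at 8 h, where TIMP3 did not pass, and its difference at 2 h was −0.04 (FDR 0.9).

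The 3 genes whose log2(CPM + 1) was most like that of TIMP3 over the 24 samples, among 12956 genes with a symbol, were PCDH7, a protocadherin (r = 0.87), RELB, a subunit of the transcription factor NF-kappaB (r = 0.86), and LOC529061 (r = 0.85). The 24 points share 8 animals and 3 hours, and the correlations are a description. At 0, 2 and 8 h, RELB averaged 4.94 ± 1.42, 27.6 ± 12.6 and 17.2 ± 5.5 CPM in Angus and 9.07 ± 1.04, 40.1 ± 9.13 and 31.7 ± 3.88 CPM in Holstein cultures (SD, n = 4). PCDH7 was at 54.6 ± 2.09, 95.5 ± 20.5 and 77.3 ± 20.7 CPM in Angus and at 66.6 ± 11, 106 ± 12.9 and 141 ± 17.9 CPM in Holstein, where, as for TIMP3, the highest mean was at 2 h in Angus and at 8 h in Holstein.

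**Figure D2:**
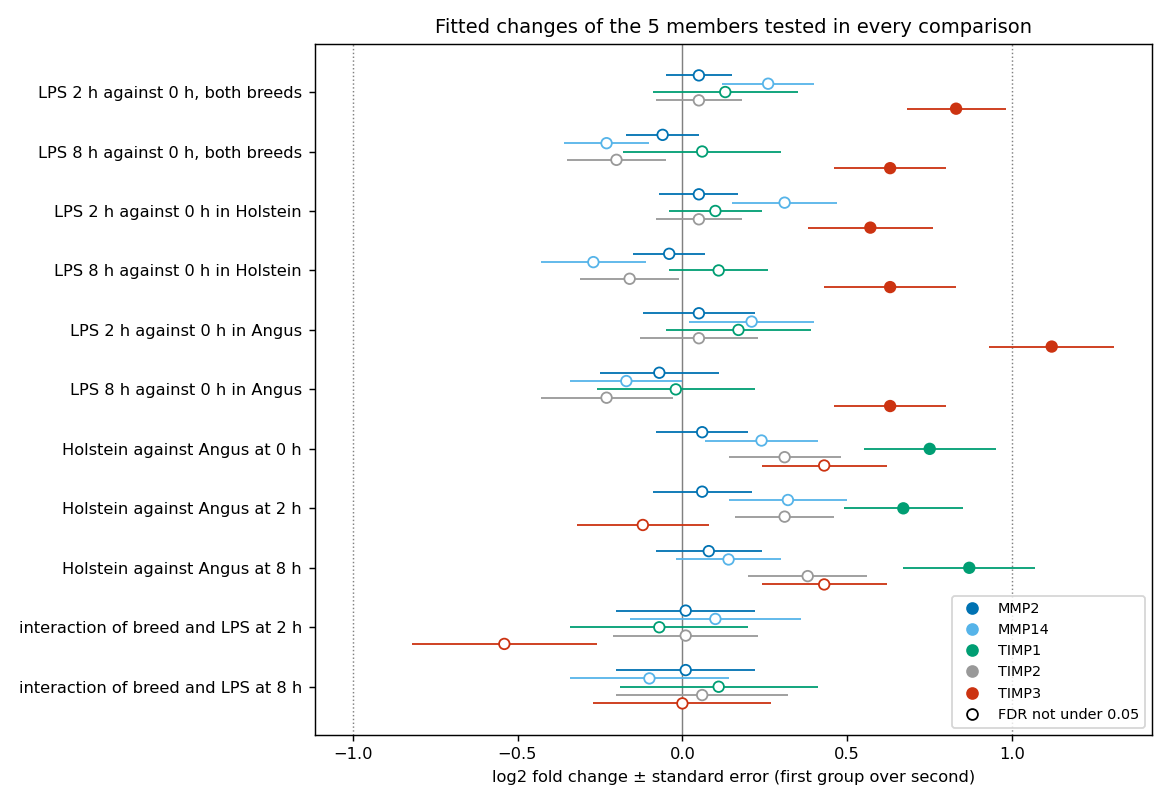
Log2 fold change (x axis, points with bars of 1 standard error) of the 5 genes tested in every comparison, with comparisons on the y axis and filled points for an FDR under 0.05. Dotted lines mark a 2-fold change; TIMP3 is filled in all 6 LPS comparisons and passes the 2-fold line in Angus at 2 h, and TIMP1 is filled in the 3 breed comparisons and stays inside the line.

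TIMP1, a secreted inhibitor of most MMPs, differed between the breeds at every hour. At 0 h, TIMP1 was at 1051, 1724, 1950 and 1571 CPM in Angus animals 1 to 4 and at 2637, 2399, 2342 and 3209 CPM in Holstein animals 1 to 4. At 2 h the values were 1305, 2040, 2014 and 1758 CPM in Angus and 2567, 2864, 2569 and 3357 CPM in Holstein. At 8 h they were 1153, 1710, 2085 and 1297 CPM in Angus and 2973, 2630, 2393 and 3408 CPM in Holstein. Every Holstein sample lay above every Angus sample of the same hour, and the highest Angus value of any hour (2085 CPM) lay below the lowest Holstein value (2342 CPM). Means were 1574 ± 382, 1779 ± 341 and 1561 ± 422 CPM in Angus and 2647 ± 396, 2839 ± 373 and 2851 ± 441 CPM in Holstein at 0, 2 and 8 h (SD, n = 4).

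The log2 difference of TIMP1 between Holstein and Angus was 0.75 (SE 0.20, FDR 0.00347) at 0 h, 0.67 (SE 0.18, FDR 0.00267) at 2 h and 0.87 (SE 0.20, FDR 8.46e-04) at 8 h, each less than 2-fold. Of the 5, 5 and 6 members tested, TIMP1 alone was past an FDR of 0.05, where 13.8%, 20.1% and 16.5% of rows were. No member tested met all limits, against 3.81%, 4.45% and 3.24% of rows. MMP3 was not among those tested at 0 and 2 h, and it passed there in fits with no filter, as given below. The 3 hours are the same 8 animals and are not independent of each other. The fibroblast markers also differed, and their summed level was 32805 to 54525 CPM in the Angus samples, below the 54883 to 75869 CPM of the Holstein samples. Most of this sum was COL1A2 and COL3A1; by their medians, 7 of the 10 markers were higher in Holstein, while PDGFRA (256 CPM in Angus, 156 in Holstein), VIM (5788 and 4649) and FBLN1 (303 and 235) were lower. Among markers of other cells, KRT5, a keratinocyte keratin, was at 8.38 to 10.2 CPM in Holstein animal 1 and at most 0.643 CPM in the other samples. RGS5 was higher in Holstein at 0 h (log2 1.33, FDR 0.0108) and VWF at 2 h (1.11, FDR 0.015) and 8 h (1.31, FDR 0.00142). Others of the same lists were not higher by their medians, among them PECAM1 (0.39 CPM in Angus, 0.2 in Holstein), CDH5 (0.0888 and 0.0112) and CSPG4 (219 and 202). The part of these markers in the TIMP1 difference was not tested. Without the 4 samples counted another way, 3 of which are 0 h samples, the difference at 0 h was 0.66 with an FDR of 0.268.

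After LPS, the log2 fold changes of TIMP1 were −0.02 to 0.17, and no FDR passed (0.735 or higher in all 6 LPS comparisons). It was higher at 2 h than at 0 h in 7 of 8 animals, with folds of 0.973 to 1.24. With the animal as replicate block, TIMP1 rose at 2 h in the breeds combined (0.14, SE 0.06, FDR 0.0291), in a fit where 47.5% of all rows passed. SYN1 had the same log2 differences between the breeds, 0.75, 0.67 and 0.87.

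TIMP2, the inhibitor that also takes part in the activation of pro-MMP2 by MMP14, stayed within a narrow range. Its group means were 510 ± 100, 528 ± 74.1 and 436 ± 92.7 CPM in Angus and 632 ± 87.5, 655 ± 72.4 and 565 ± 94.8 CPM in Holstein at 0, 2 and 8 h (SD, n = 4). At 8 h it was below its 0 h level in all 8 animals, with folds of 0.757 to 0.938. The fit without a block gave −0.20 (SE 0.15, FDR 0.46), and the fit with the animal as replicate block −0.20 (SE 0.05, FDR 1.19e-04), where 40.7% of rows passed. Within the breeds the blocked values at 8 h were −0.16 (SE 0.06, FDR 0.0283) in Holstein and −0.24 (SE 0.08, FDR 0.0168) in Angus, with 35.2% and 20.7% of rows past the same limit. Between the breeds, Holstein was higher by 0.31 (FDR 0.214), 0.31 (FDR 0.123) and 0.38 (FDR 0.148) at the 3 hours, with overlap at each. Without Angus animal 3, the Angus animal with the highest TIMP2 level at each hour, these became 0.44, 0.39 and 0.48 with FDRs of 0.0233, 0.0228 and 0.0391.

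MMP14, the membrane-type MMP that cleaves fibrillar collagen at the cell surface and activates pro-MMP2, differed little between the hours but in the same way in most animals. Its means were 183 ± 34, 213 ± 42.7 and 163 ± 22.8 CPM in Angus and 216 ± 36.5, 268 ± 43.4 and 179 ± 28.6 CPM in Holstein at 0, 2 and 8 h (SD, n = 4). It was above its 0 h level at 2 h in all 8 animals (folds 1.08 to 1.30) and below it at 8 h in 7 of 8 (folds 0.798 to 1.02, with Angus animal 2 as the exception). The spread between animals was of the size of these differences, and the fits without a block gave 0.26 (SE 0.14, FDR 0.205) at 2 h and −0.23 (SE 0.13, FDR 0.262) at 8 h. With the animal as replicate block, MMP14 rose by 0.26 (SE 0.05, FDR 1.07e-07) at 2 h and fell at 8 h (−0.22, SE 0.05, FDR 8.93e-05). These 2 fits passed 47.5% and 40.7% of all rows. In Holstein the blocked changes were 0.31 (FDR 1.40e-05) at 2 h and −0.26 (FDR 1.09e-05) at 8 h, and in Angus 0.21 (FDR 0.00921) and −0.17 (FDR 0.138). The blocked fits at 2 h within a breed passed 35.8% of rows in Holstein and 35.8% in Angus. At 8 h they passed 35.2% in Holstein and 20.7% in Angus. The breeds overlapped at each hour, with differences of 0.24 (FDR 0.399), 0.32 (FDR 0.197) and 0.14 (FDR 0.586). Without Angus animal 3, the difference at 2 h was 0.46 with an FDR of 0.0221.

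MMP2, the gelatinase that MMP14 and TIMP2 act upon, was steady. Its values ran from 1528 to 2363 CPM in the 12 Angus and from 1757 to 2394 CPM in the 12 Holstein samples. Group means were 1966 ± 316, 2045 ± 320 and 1884 ± 361 CPM in Angus and 2048 ± 188, 2135 ± 233 and 1984 ± 204 CPM in Holstein at 0, 2 and 8 h (SD, n = 4). In log2 terms it differed by −0.07 to 0.08 in all 11 comparisons, with standard errors of 0.10 to 0.21 and FDRs of 0.783 or higher. Angus animal 2 had the lowest MMP2 level of all 8 animals at each hour (1530, 1653 and 1528 CPM). With the animal as replicate block, the changes in the breeds combined were 0.05 (SE 0.05, FDR 0.409) at 2 h and −0.06 (SE 0.05, FDR 0.311) at 8 h.

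The other 4 genes lay near or under the filter of 1 CPM in at least 50% of the samples compared. MMP1, MMP9 and MMP13 were removed by it in all 11 comparisons, and MMP3 was kept in 5, in each of which the samples at 1 CPM or above were for the most part of Angus. The values of these genes that follow are from fits with no filter on low counts unless stated, adjusted over all rows with a count.

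MMP1, the interstitial collagenase, was low at 0 h and higher at 8 h in all 8 animals. At 0 h, MMP1 was at 0.356, 0.126, 0.0648 and 0.231 CPM in Angus animals 1 to 4 (6 to 29 counts) and at 0.18, 0.0732, 0.294 and 0.11 CPM in Holstein animals 1 to 4 (5 to 27 counts). At 2 h the values were 0.165, 0.144, 0.184 and 0.15 CPM in Angus and 0.251, 0.153, 0.274 and 0.185 CPM in Holstein. At 8 h they were 0.714, 0.429, 0.628 and 0.549 CPM in Angus (32 to 60 counts) and 0.959, 0.398, 0.637 and 1.82 CPM in Holstein (32 to 182 counts). Every 8 h sample lay above every 0 h and 2 h sample of either breed, whose highest value was 0.356 CPM. The 1 sample above 1 CPM was Holstein animal 4 at 8 h.

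With the breeds combined, MMP1 rose by 2.06 on the log2 scale at 8 h (SE 0.39, FDR 1.77e-05), where 4.61% of rows had an FDR under 0.05. At 2 h its log2 change was 0.05 (SE 0.34, FDR 0.984). Within the breeds the 8 h change was 2.49 in Holstein (SE 0.56, FDR 5.55e-04, against 5.34% of rows) and 1.57 in Angus (SE 0.46, FDR 0.0461, against 1.39% of rows). The folds over 0 h were 2.16 to 16.5 in the 4 Holstein and 2 to 9.69 in the 4 Angus animals, and the interaction at 8 h was 0.92 (SE 0.75, FDR 1). The pooled rise held without each animal (FDR no higher than 5.77e-04) and without the 4 samples counted another way (1.90, FDR 0.00281). The rise in Angus alone did not pass without animal 2, 3 or 4 (FDR 0.276, 0.261 and 0.196), by the quasi-likelihood test (FDR 0.2) or without the 4 samples (FDR 0.0946), and that in Holstein did not pass without the 4 samples (1.99, FDR 0.0847). Between the breeds MMP1 overlapped at each hour, with FDRs of 0.402 or higher.

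MMP3, the stromelysin that degrades proteoglycans and activates procollagenases, differed widely between animals and between the breeds. At 0 h, MMP3 was at 1.47, 1.67, 0.119 and 4.94 CPM in Angus animals 1 to 4 (120, 146, 11 and 513 counts) and at 0.0898, 0.0439, 0.153 and 0.0441 CPM in Holstein animals 1 to 4 (6, 3, 14 and 2 counts). At 2 h it was at 1.57, 1.91, 0.123 and 3.94 CPM in Angus and at 0.0696, 0.0153, 0.144 and 0.0994 CPM in Holstein. At 8 h the Angus values were 1.65, 2.91, 0.188 and 4.8 CPM and the Holstein values 1.44, 0.298, 0.163 and 1.37 CPM. Angus animals 1, 2 and 4 were high at all hours, Angus animal 3 was in the range of the Holstein animals at 0 h, and Holstein animals 1 and 4 came near Angus animal 1 at 8 h only.

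MMP3 was lower in Holstein than in Angus by −4.58 on the log2 scale at 0 h (SE 0.83, FDR 1.19e-04, against 5.40% of rows) and by −4.49 at 2 h (SE 0.82, FDR 8.98e-05, against 7.79% of rows). The breeds nonetheless overlapped through Angus animal 3, which lay below 1 Holstein animal at each of these hours. The paper's list of breed differences at 0 h holds MMP3 too, as lower in Holstein. At 8 h, where MMP3 passed the filter, the difference was −1.53 (SE 0.86, FDR 0.233), and −1.92 (FDR 0.0335) without Angus animal 3. At 0 h and 2 h the difference kept an FDR under 0.05 without each of the 8 animals in turn (log2 −5.08 to −3.66 and −4.92 to −3.83). Without the 4 samples counted another way, among them the 0 h sample of Angus animal 4 with the highest MMP3 level, the 0 h difference was −3.14 (SE 0.95, FDR 0.133).

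After 8 h of LPS, MMP3 rose in Holstein by 3.24 on the log2 scale (SE 0.73, FDR 8.55e-04), where the counts of animals 1 to 4 went from 6, 3, 14 and 2 at 0 h to 144, 24, 10 and 137 at 8 h. Animals 1 and 4 carried most of it, and the change did not pass without Holstein animal 4 (2.69, FDR 0.0521) or without the 4 samples counted another way (2.73, FDR 0.111). In Angus the 8 h change was 0.21 (SE 0.96, FDR 0.974) in the filtered fit, with folds of 0.971 to 1.74. With the breeds combined it was 0.58 (SE 0.88, FDR 0.754), and 1.41 (SE 0.47, FDR 0.0191) with the animal as replicate block. In that blocked fit, 40.7% of all rows passed. The interaction at 8 h was 3.04 (SE 1.31, FDR 1), and 2.48 (SE 0.68, FDR 0.023) with the animal as replicate block, where 2.59% of rows passed. By the quasi-likelihood test with the block, the interaction had an FDR of 0.13. At 2 h no comparison of MMP3 with 0 h passed, and log2 changes were −0.12 to −0.05.

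MMP9, the second gelatinase and a product of leukocytes above all, stayed at 0 to 0.521 CPM (0 to 46 counts). Angus animal 4 had the highest MMP9 level of the 8 animals at each hour (0.443, 0.483 and 0.521 CPM), and the other 7 animals reached at most 0.241 CPM. Its log2 fold changes ran from −1.19 to 1.09, with FDRs of 0.442 or higher, so that no difference was detectable at this depth. MMP13, the collagenase of cartilage and bone, had 6 counts in all 24 samples together, in 5 samples with at most 2 counts each. The 3 counts that the depth could show stood for at most 0.059 CPM, and no fold is given.

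**Figure D3:**
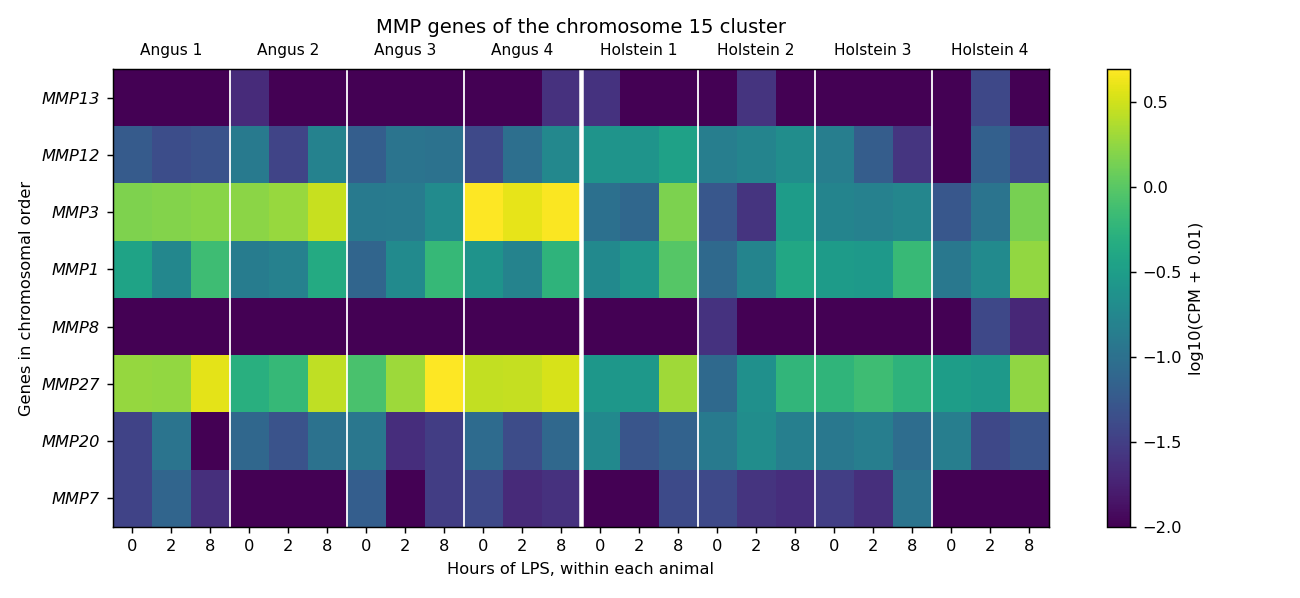
Level (colour, log10 of CPM + 0.01) of the 8 MMP genes of the chromosome 15 cluster (y axis, in chromosomal order) in the 24 samples (x axis, hours of LPS within each animal). MMP3, MMP1 and MMP27 reached 4.94, 1.82 and 4.89 CPM, the other 5 genes stayed at or below 0.339 CPM, and Angus animals 1, 2 and 4 stand out for MMP3 at every hour.

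The neighbours of MMP1, MMP3 and MMP13 in the chromosome 15 cluster, in order MMP13, MMP12, MMP3, MMP1, MMP8, MMP27, MMP20 and MMP7, were unequal. MMP27 had 3010 counts over the 24 samples, MMP3 2477 and MMP1 767, while MMP12 had 203, MMP20 143, MMP7 35, MMP13 6 and MMP8 4. MMP27 was at 3.8, 2.71, 4.89 and 3.38 CPM in Angus and 2.04, 0.584, 0.539 and 1.74 CPM in Holstein at 8 h, and did not overlap between the breeds (log2 −1.58, SE 0.44, FDR 0.00674). Angus animal 3, low in MMP3, had the highest MMP27 level of all at 8 h. At 0 and 2 h its MMP27 level (0.831 and 1.99 CPM) was below that of Angus animal 4 (2.82 and 2.86 CPM). The 8 h change of MMP27 with the breeds combined was 1.44 (SE 0.58, FDR 0.0911), and 1.80 (SE 0.34, FDR 7.47e-06) with the animal as replicate block.

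Of 18 other genes of the MMP and TIMP family, 15 had a row (MMP10, MMP21 and MMP26 had none) and 8 or 9 were tested in a comparison. None met all limits after LPS with the breeds combined. MMP11, stromelysin-3, fell at 8 h (−0.88, SE 0.28, FDR 0.0227), in all 8 animals, and met all limits in Holstein (−1.02, SE 0.25, FDR 7.28e-04), though not without the 4 samples counted another way (−0.91, FDR 0.0408). Between the breeds, MMP15, another membrane-type MMP, was higher in Holstein at 0, 2 and 8 h by 1.09 (FDR 9.78e-04), 1.24 (FDR 0.0171) and 1.33 (FDR 0.00661). Its means were 1.36 ± 0.344, 1.02 ± 0.466 and 0.848 ± 0.458 CPM in Angus and 2.91 ± 0.624, 2.41 ± 1 and 2.12 ± 0.44 CPM in Holstein (SD, n = 4). The 0 h difference of MMP15 did not pass without the 4 samples (0.90, FDR 0.243), nor the 2 h difference by the quasi-likelihood test (FDR 0.0566). MMP28, epilysin, was higher in Holstein by 0.94 (FDR 3.23e-04), 0.86 (FDR 2.09e-04) and 1.10 (FDR 1.86e-06), with no overlap at any hour. In this list 1, 1 and 3 genes met all limits at 0, 2 and 8 h, of 8, 8 and 9 tested, against 3.81%, 4.45% and 3.24% of all rows. These counts are a description, as the list was chosen with earlier results of these data known. MMP15 at 2 and 8 h and MMP27 at 8 h passed the filter for the most part through the breed where they were high.

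Among 19 genes of plasminogen activation and MMP regulation, 18 had a row (CTSL had none) and 15 or 16 were tested. Plasmin, made from plasminogen by PLAU and PLAT, is a known activator of pro-MMPs. With the breeds combined, 5 of the 15 tested rose at 2 h by FDR and none fell (22.0% of all rows passed), and at 8 h 5 rose and 1 fell (12.8% of all rows). The median log2 change of the tested genes was 0.17 at 2 h and 0.17 at 8 h, against −0.00 and −0.01 over all rows. For the members tested it was 0.13 and −0.00. The list was chosen with earlier results of these data known, so that its counts and medians are a description and no test of the list.

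PLAU, the urokinase activator itself, was below its 0 h level at 8 h in all 8 animals, with folds of 0.618 to 0.758. It fell in Holstein (−0.57, SE 0.09, FDR 5.18e-08), and the values were −0.51 (FDR 0.0982) in Angus and −0.54 (SE 0.23, FDR 0.108) with the breeds combined, or −0.56 (SE 0.05, FDR 2.34e-24) with the animal as replicate block. PLAUR, the cell surface receptor of PLAU, rose by 2.05 (SE 0.16, FDR 4.27e-32) at 2 h and 1.38 (SE 0.17, FDR 5.13e-13) at 8 h, with folds of 3.37 to 6.39 and 2.05 to 3.70 in the 8 animals. SERPINB2, an inhibitor of PLAU, rose by 1.93 (SE 0.56, FDR 0.00602) and 2.72 (SE 0.49, FDR 7.90e-06) with the breeds combined. SERPINE2, protease nexin 1, rose at 8 h by 1.47 (SE 0.26, FDR 2.43e-06), with means at 0 and 8 h of 82.5 ± 22.4 and 247 ± 35.1 CPM in Holstein cultures and of 78.5 ± 27.8 and 200 ± 145 CPM in Angus cultures (SD, n = 4). FURIN, the convertase that removes the propeptide of MMP14, rose at 2 h by 1.18 (SE 0.12, FDR 1.56e-18).

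CD44, a hyaluronan receptor that docks MMP9 and MMP14 at the cell surface, rose by 0.71 (SE 0.10, FDR 4.86e-11) at 2 h and 0.86 (SE 0.11, FDR 2.41e-12) at 8 h, and met all limits in Holstein at 8 h (1.01, SE 0.15, FDR 2.22e-09). TFPI2, a serine protease inhibitor, rose by 0.61 (FDR 0.00482) and 0.75 (FDR 0.00176), less than 2-fold. RECK, a membrane-anchored MMP inhibitor, fell by 0.34 on the log2 scale at 8 h (FDR 0.0336). TGM2, a transglutaminase that crosslinks matrix, rose in Holstein at 8 h (1.48, SE 0.42, FDR 0.00576), where it passed the filter mainly through the 8 h samples, though not without the 4 samples (1.52, FDR 0.0586). Within the breeds, 2 of 15 tested met all limits in Holstein at 2 h and 5 of 16 at 8 h, and 3 of 15 and 2 of 15 in Angus, all upward, against 3.14%, 2.51%, 2.98% and 0.863% of all rows in either direction. With the breeds combined, 3 of 15 met them at each hour. At least 1 of these therefore did not meet them in Holstein at 2 h, and at least 1 did not in Angus at 8 h. The 5 in Holstein at 8 h include TGM2. Its 8 h samples alone met the filter, which favours a rise, so that the share of all rows is no measure for it.

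Between the breeds, PLAU was lower in Holstein at each hour, by −0.83 (FDR 5.57e-08), −0.88 (FDR 6.54e-07) and −0.89 (FDR 7.98e-06), and did not overlap. Its means were 64.3 ± 9.32, 79 ± 14.2 and 45.2 ± 10.3 CPM in Angus and 36.1 ± 2.79, 43 ± 4.53 and 24.2 ± 1.28 CPM in Holstein (SD, n = 4). The direction was opposite to that of TIMP1 in the same samples. TGM2 was at 1.69 to 2.97 CPM in Holstein and 0.191 to 0.345 CPM in Angus at 8 h (log2 3.05, SE 0.30). It passed the filter there only through the Holstein samples, so that it had to differ. At 0 and 2 h it missed the filter and was not tested, with Holstein means 5.19 and 6.77 times those of Angus and no overlap. SERPINB2 was lower in Holstein at 2 h (−1.57, SE 0.53, FDR 0.0262; by the quasi-likelihood test FDR 0.0751). In this list 0, 1 and 1 genes of 15, 15 and 16 tested met all limits at 0, 2 and 8 h, against the same 3.81%, 4.45% and 3.24% of all rows. The gene at 8 h was TGM2, which had to differ, so that the share of all rows is no measure for it. No gene of either list met all limits for the interaction of breed and LPS.

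**Figure D4:**
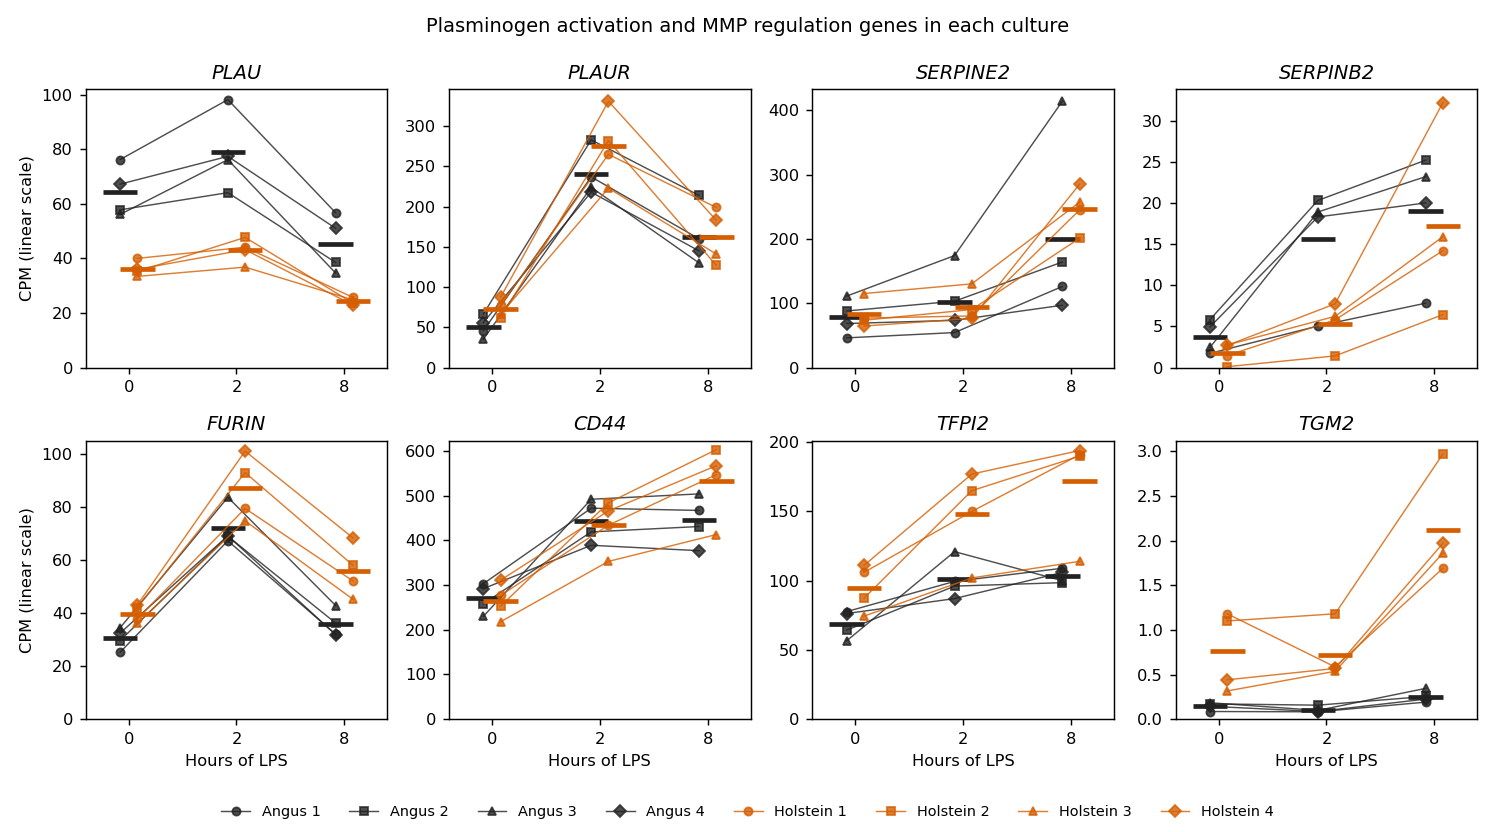
Level of 8 genes of plasminogen activation and MMP regulation (y axis, CPM on linear scales that start at 0) against hours of LPS (x axis) in the 4 Angus (black) and 4 Holstein (orange) cultures, drawn as lines per animal with bars for group means. PLAUR and FURIN are highest at 2 h, SERPINE2 and SERPINB2 have their highest group means at 8 h, and PLAU is lower in every Holstein than in every Angus sample of an hour.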

How the data were processed

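Poly(A) RNA of 24 cultures was sequenced by the authors with an unstranded Illumina kit (base calling with CASAVA 1.7, per the labels), aligned to UMD v3.1 with NextGENe 2.3.4 and counted per gene. The deposited tables hold read counts per row, which were tested, and an average signal (coverage) per row, which served to compare how samples were counted. A read could be credited to overlapping rows.

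Only the samples of the groups compared entered a fit, over all rows, with edgeR 4.0.16 in R 4.3.3. TMM scaling, a filter of 1 CPM in at least 50% of samples, a likelihood-ratio test and Benjamini-Hochberg adjustment (false discovery rate, FDR) were used, and the limits were an FDR under 0.05, a fold change of at least 2 and a mean above 1 CPM. Apart from TMM, these follow the study's methods. The samples of an animal were paired by the labels, and deviations from group means correlated at 0.53 or more within an animal. Fits with the animal as block are given where they change a result. Alternatives were the quasi-likelihood test, DESeq2 1.42.0, other scalings and filters, rows with a symbol only, leaving out each animal, and leaving out 4 samples counted another way. All 36 pairs of samples within groups differed by more than sampling noise. The code was tested on simulated data. The members, the other genes described (from 2 further lists, each gene past the limits in at least 1 comparison) and the marker lists were chosen with earlier results of these data known. RECK, TFPI2 and PLAU, past the FDR alone, and the other genes of the MMP cluster were named after their values were seen. One gene was left out of these lists and is not reported here, and list genes that are not named are covered by the counts. For TIMP3, the 3 genes most correlated with it were named. Counting error is not covered beyond the limit of 3 counts. Within a breed, between the breeds and for the interaction without a block, p-values measure the spread between the 4 animals of a group. In LPS fits with the breeds combined and no block, that spread is over all 8 animals and includes the breed difference. With the block, it is the spread of the changes within animals.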

Additional observations from a re-analysis of the deposited data

Results flagged for a closer look

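For 2 genes, the LPS change differed between the breeds by the interaction term in the fit with the animal as replicate block. For TIMP3 at 2 h the interaction was −0.51 on the log2 scale (SE 0.11, FDR 1.87e-04), and 0.009 was its FDR by the blocked quasi-likelihood test. All 4 Angus animals had a larger fold than all 4 Holstein animals. For MMP3 at 8 h it was 2.48 (SE 0.68, FDR 0.023), with an FDR of 0.13 by the blocked quasi-likelihood test. Neither passed without the block (FDR 1 for both). MMP3 had 2 to 14 counts in the Holstein samples at 0 h. In none of the 48 groups of 4 samples examined did 1 sample stand apart from the other 3 by Dixon's ratio at the 95% level.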

How the results depend on the processing

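The number of members that met all limits was 0 in 10 of the 11 comparisons and 1 (TIMP3) in Angus at 2 h. It became 0 there with library totals only and without the 4 samples counted another way. With the animal as replicate block it became 1 for both breeds at 8 h and for the interaction at 8 h (MMP3 in both), and with no filter 1 for Holstein against Angus at 0 h (MMP3). It ranged from 0 to 2 without 1 animal for Holstein against Angus at 8 h (2 without Angus replicate 3). By FDR alone, in the fits reported without a block, the number of members was 1 in each of the LPS and breed comparisons. With the block and the breeds combined, MMP14 (FDR 1.07e-07) and TIMP1 (FDR 0.0291) also passed at 2 h. At 8 h MMP14 (FDR 8.93e-05), TIMP2 (FDR 1.19e-04) and MMP3 (FDR 0.0191) also passed with the block. These blocked fits passed 47.5% of all rows at 2 h and 40.7% at 8 h. No result that passed, in the fit reported or in an alternative, reversed direction between them, though some differences that passed in neither changed sign without 1 animal. The number of members past the limits was unchanged under 161 alternatives and moved under 14. With library totals only, the median of all rows moved to −0.12 in Angus at 2 h, −0.10 for the breeds at 0 h and 0.11 for the interaction at 2 h, and rows past the limits upward and downward were 319 and 344 in place of 400 and 207, 251 and 524 in place of 353 and 424, and, for the breeds at 8 h, 394 and 314 in place of 458 and 213. The fits without a filter combined with another choice were added after seeing the data. With the likelihood-ratio test, the block changed no call of a member other than those given. Genes under 1 CPM rest on few counts, and depth limits what can be said of MMP9 and MMP13.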
